A study of Mus musculus with 6 samples.

Results

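The interferon response and MHC class I genes are a list of 45 mouse genes, taken by symbol from the 24982 genes of a count matrix. The list holds 8 transcription factors of the Irf and Stat families, 28 interferon-stimulated genes, and 9 genes of antigen processing and MHC class I.

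RNA was sequenced from Tomato-labelled, Itga6-stained (CD49f) keratinocytes of back skin in 6 libraries. Every mouse carried Lgr6-EGFP-Ires-CreERT2, which drives GFP and an inducible Cre from the Lgr6 locus, and R26loxP-stop-loxP-tdTom, a reporter that Cre switches on for good. All received 20 µg tamoxifen at postnatal day 42, so the labelled cells are Lgr6-expressing keratinocytes and what descended from them by the time of sampling. Each of 3 mice, numbered 890, 892 and 899, gave a denervated library from the left side, sampled 4 weeks after its thoracic skin nerves were dissected out, and a normal library from the right side with its nerves intact. All mice had the midline incision under ketamine and xylazine and were then given meloxicam at 5 mg/kg every 12 h for 2 days, and the right side is described with no sham dissection. Body side, local surgery and nerve loss therefore cannot be told apart. Sex and strain are not given in the labels.

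Interferons are secreted alarm proteins whose receptors signal through Jak kinases to Stat proteins. Type I and type III interferons act through a complex with Stat2 and Irf9 that binds the interferon-stimulated response element (ISRE), whereas interferon gamma acts on the gamma-activated site (GAS) and raises Irf1, which in turn drives immunoproteasome, peptide transport and MHC class I genes. Keratinocytes can make type I and III interferons, respond to all types, and present peptides on MHC class I, and a low tonic interferon signal is present in many resting tissues.

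Promoter sequence shows how often the listed genes carry exact matches to these elements. RefSeq promoter windows on GRCm38.p6, the mm10 assembly, run from 250 bases before to 50 bases after a start, and 38 of the 45 genes had at least 1. The ISRE core was searched as GAAA, any 2 bases, GAAA, on both strands and with overlapping matches counted. It lay in a window of 17 of these 38 genes (44.7%), against 1079 of all 27025 genes with a window (3.99%, or 3.44% of windows). By group it was in 14 of 22 interferon-stimulated genes, 2 of 8 Irf and Stat factors (Irf2 and Stat2) and 1 of 8 antigen processing genes (B2m). The GAS, searched as TTCNNNGAA, lay in windows of 11 of the 38 genes (28.9%), against 9.55% of all genes and 8.3% of windows. By group it was in 7 of 22 interferon-stimulated genes, 3 of 8 Irf and Stat factors and 1 of 8 antigen processing genes (Psmb8). Irf2, Oas1a, Bst2, Gbp7 and Igtp had both motifs. A match is a description of the letters and shows no binding, and interferon-stimulated genes are known for such elements. An exact search misses variant forms, so a window without a match is not shown to lack an element.

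The 4 windows that follow are examples from genes with a match, with the matched motif in capitals, 5′ to 3′ on the gene's own strand. Irf1, the listed gene that passed the test between the sides, has a GAS whose first base lies 90 bases before the start (chr11:53769764-53770063, plus strand). Cxcl10 has an ISRE core at −213 (chr5:92348840-92349139, minus strand). Isg15 has 3 overlapping ISRE cores at −78, −72 and −66 (chr4:156200769-156201068, minus strand), and B2m has 1 at −139 (chr2:122147437-122147736, plus strand).
Irf1: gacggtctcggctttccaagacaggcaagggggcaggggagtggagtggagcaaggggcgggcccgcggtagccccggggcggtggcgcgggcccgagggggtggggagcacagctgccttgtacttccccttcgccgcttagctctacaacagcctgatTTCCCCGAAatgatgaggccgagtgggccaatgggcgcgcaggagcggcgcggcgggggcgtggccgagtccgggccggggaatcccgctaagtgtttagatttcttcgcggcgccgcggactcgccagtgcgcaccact
Cxcl10: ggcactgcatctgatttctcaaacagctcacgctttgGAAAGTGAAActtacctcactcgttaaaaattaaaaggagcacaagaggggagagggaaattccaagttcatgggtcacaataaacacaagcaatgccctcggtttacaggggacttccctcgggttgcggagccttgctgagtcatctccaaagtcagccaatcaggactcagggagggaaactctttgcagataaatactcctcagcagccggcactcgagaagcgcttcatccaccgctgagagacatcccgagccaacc
Isg15: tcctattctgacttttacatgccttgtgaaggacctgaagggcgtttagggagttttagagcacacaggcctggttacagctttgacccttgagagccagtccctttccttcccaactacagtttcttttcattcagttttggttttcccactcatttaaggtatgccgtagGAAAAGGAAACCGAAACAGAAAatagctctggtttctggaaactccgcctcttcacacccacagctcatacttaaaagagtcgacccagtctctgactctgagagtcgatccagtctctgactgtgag
B2m: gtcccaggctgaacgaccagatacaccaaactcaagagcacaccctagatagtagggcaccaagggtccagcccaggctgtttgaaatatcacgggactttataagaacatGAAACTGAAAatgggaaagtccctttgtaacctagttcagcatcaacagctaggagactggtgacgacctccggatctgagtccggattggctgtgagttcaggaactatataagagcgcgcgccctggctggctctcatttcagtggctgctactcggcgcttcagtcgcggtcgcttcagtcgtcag

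Tap1 and Psmb9 are transcribed in opposite directions from a shared promoter region on chromosome 17. Their RefSeq starts, at 34187556 and 34187330, are 226 bases apart, so 1 window spans both (chr17:34187306-34187605, plus strand). It is shown because both genes were lower after denervation in 3 of 3 mice, as were 21.2% of all genes tested. The capitals mark the first 10 transcribed bases of Psmb9, which reads leftward, and then of Tap1.
Tap1 and Psmb9: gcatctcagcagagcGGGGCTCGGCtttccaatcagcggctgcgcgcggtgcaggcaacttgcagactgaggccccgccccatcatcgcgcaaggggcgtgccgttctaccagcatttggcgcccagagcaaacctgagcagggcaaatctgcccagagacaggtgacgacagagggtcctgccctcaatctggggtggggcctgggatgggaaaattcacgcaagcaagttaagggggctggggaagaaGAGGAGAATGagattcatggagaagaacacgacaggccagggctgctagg

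Libraries held 9610071 to 26167593 counts, and the 45 genes took 0.472% to 0.536% of them. In the order 890, 892 and 899, the normal totals were 26167593, 20724439 and 13801154 and the denervated totals 9610071, 14021730 and 13232950, so that 3 counts, the limit that a count of 0 allows, were worth 0.113 to 0.323 CPM, the count relative to library size. Values below are CPM scaled by TMM library factors, save for the marker sums of this paragraph, which are scaled by library totals alone. Those given as TPM are transcript levels that allow for gene length and are used to compare levels between genes. Basal keratinocyte genes, 8 in number and Krt5, Krt14 and Itga6 among them, summed to 44700 to 50470 CPM. Markers of leukocytes summed to 7.38 to 10.4 CPM in normal and 8.74 to 11.6 in denervated libraries, of Langerhans and myeloid cells to 125 to 189 and 175 to 189, and of T cells to 110 to 134 and 94.8 to 159, most of the last from Thy1. Those of plasmacytoid dendritic cells summed to 1.23 to 1.34 in normal and 0.529 to 0.999 in denervated libraries, of endothelial cells to 0.688 to 1.74 and 0.937 to 1.44 with Cdh5 and Emcn at 0, and of fibroblasts to 1.64 to 4.58 and 1.04 to 1.78 with Lum at 0. None of the markers tested passed between the sides, and the part of other cells in the results that follow was not tested. In such bulk libraries fewer cells of a type and less RNA per cell cannot be told apart.

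The 45 genes spanned from near absence to the most abundant transcripts of the sort. B2m, the invariant light chain of MHC class I, stood highest at 4673 to 5362 TPM over the 6 libraries, followed by the class I heavy chains H2-D1 at 2244 to 2671 and H2-K1 at 912 to 1558. These 3 ranges did not overlap in TPM. The order of the heavy chains is uncertain, because estimated counts were 2.41 to 2.64 times the raw counts for H2-D1 and 0.979 to 1.02 times for H2-K1. In CPM from raw counts, which do not allow for gene length, H2-D1 at 824 to 1076 and H2-K1 at 811 to 1337 overlapped. Irf1 came next at 172 to 344 TPM, above every other factor on the list. The immunoproteasome subunit Psmb8 (99.6 to 134), the peptide transporter subunit Tap1 (101 to 135), the peptide-loading chaperone Tapbp (104 to 118) and Psmb9 (75.1 to 124) overlapped one another. Tap2, the partner of Tap1, ranged from 52.3 to 69.0 TPM, and Psmb10 from 12.3 to 17.7. Among the 28 listed interferon-stimulated genes the highest mean was that of Cxcl10, a chemokine that draws in T cells, at 26.4 TPM. Some interferon-stimulated genes beyond the list stood higher, such as Ifitm3 with a mean of 588 TPM and Ifitm2 with 313. At the low end stood the classical viral response genes: Ifit1 had a mean of 0.395 TPM, Rsad2 0.352, Mx1 0.302 and Ifit3 0.0379.

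**Figure D1:**
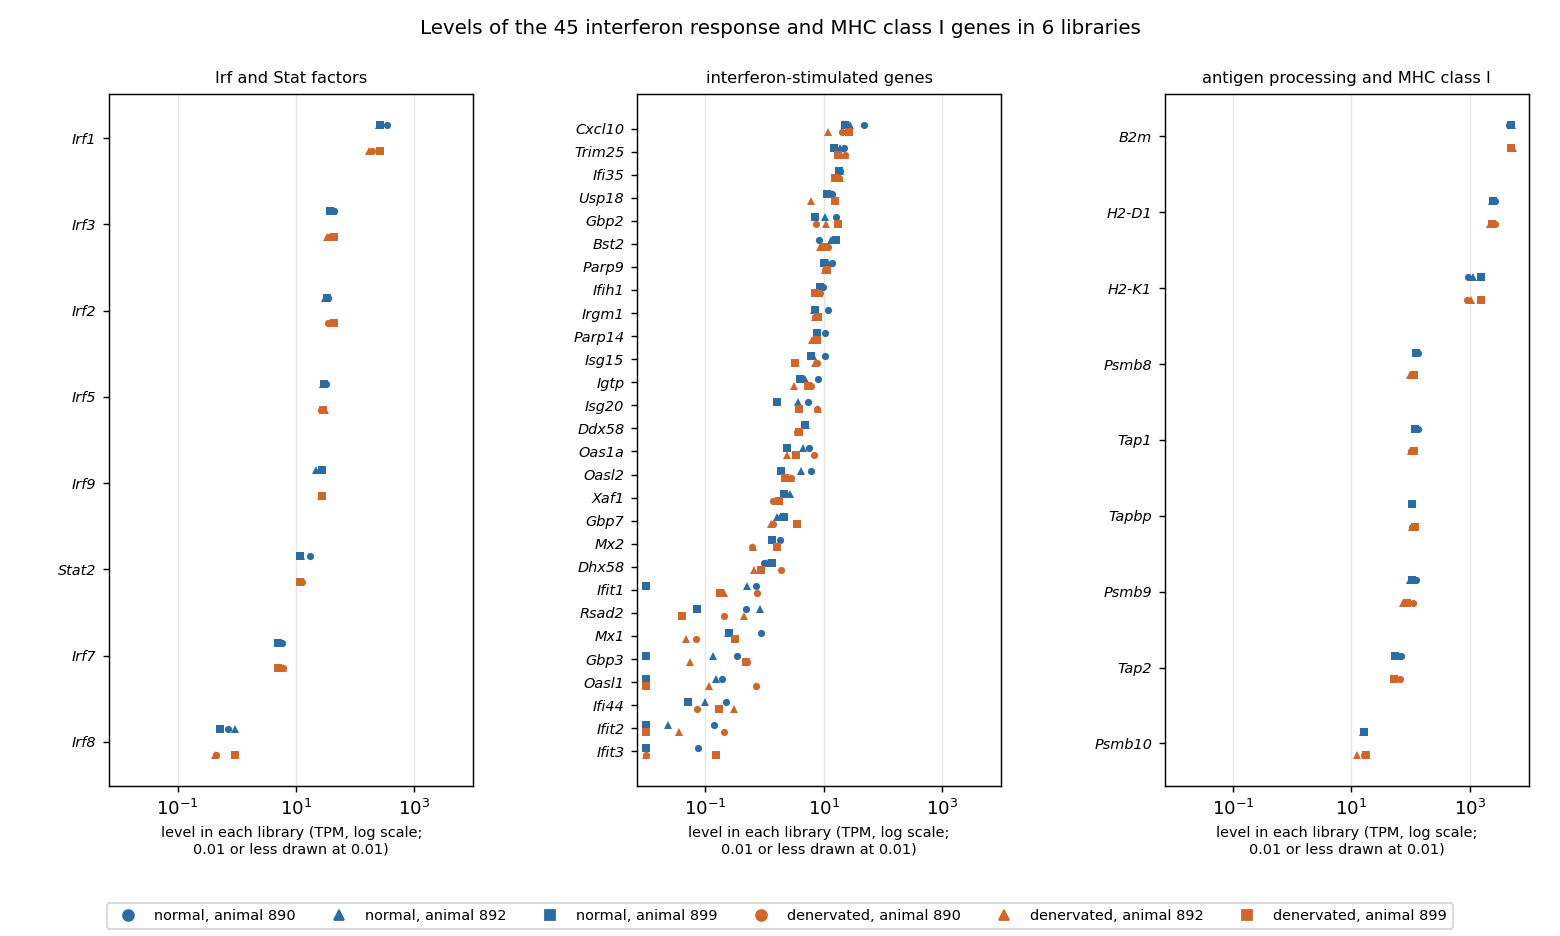
Level of each of the 45 genes in each library (x axis, TPM on a log scale; values of 0.01 or less drawn at 0.01), in panels for Irf and Stat factors, interferon-stimulated genes, and antigen processing and MHC class I. Blue marks normal and orange denervated libraries, and the marker shape gives the animal; B2m, H2-D1 and H2-K1 stand highest, and the 8 lowest interferon-stimulated genes lie below 1 TPM in every library.

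Denervated and normal sides were compared with edgeR's quasi-likelihood test on raw counts, with the mouse as a block and Benjamini-Hochberg adjustment over all 12310 genes tested. A gene was said to rise or fall at an adjusted p below 0.05. Of the 45 genes, 38 had enough counts to be tested, and 1 passed: Irf1, which fell. Over all genes 3.46% passed (0.577% lower and 2.88% higher), and 1 of 38 is near that background. Scaled by library totals instead, the share of passing genes that were higher was 59.3% rather than 83.3%, and Irf1 again passed. The 7 genes not tested were Ifit1, Ifit2, Ifit3, Ifi44, Mx1, Oasl1 and Gbp3. Log2 fold changes were below 0 for 27 of the 38 (71.1%), against 54.7% of all genes tested, and their median was −0.14, against −0.02 for all genes. An unadjusted p below 0.05 was reached by 8 genes in the lower direction (7.86% of all genes) and by 3 in the higher direction (10.4% of all genes). In 3 of 3 mice the denervated side was lower for 12 of the 38 (21.2% of all genes) and higher for 4 (19.3% of all genes). All 3 denervated libraries lay below all 3 normal libraries for Irf1, Ddx58, Psmb8 and Tap1 (9.21% of all genes), and above them for Irf2 and Tapbp (9.76% of all genes). Tapbp counts as higher there and in 3 of 3 mice only by a difference beyond the digits shown. In mouse 892 both of its sides had 176 CPM.

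**Figure D2:**
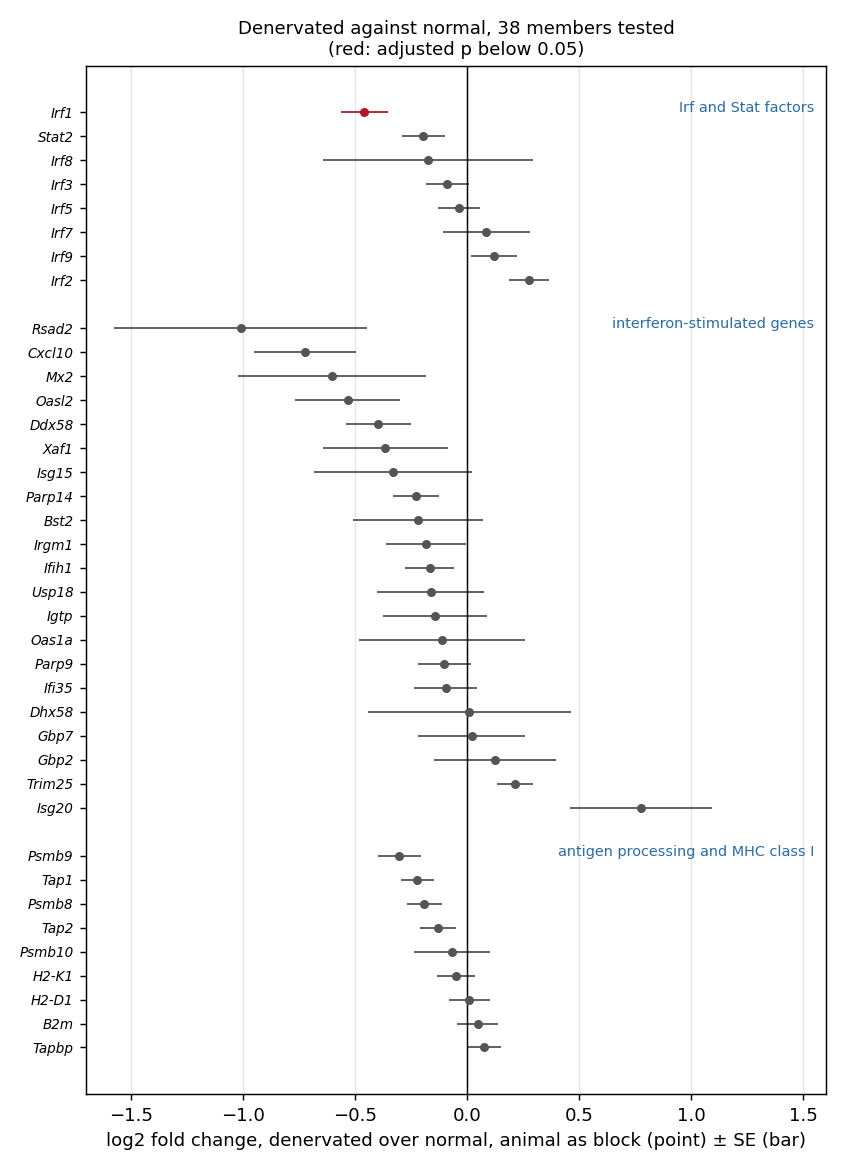
Log2 fold change of denervated over normal (x axis; point) with its standard error (bar) for the 38 genes tested, by edgeR with the mouse as a block, ordered within the 3 groups. Irf1, in red, is the gene that passed at an adjusted p below 0.05; 27 points lie left of 0.

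Among the 8 Irf and Stat factors, 1 fell, none rose and 7 did not pass, and their median log2 fold change was −0.06. Irf1, the factor induced by interferon gamma, had 419, 323 and 330 CPM on the normal side of mice 890, 892 and 899 and 250, 220 and 312 CPM on the denervated side. Every denervated library lay below every normal one, but the side difference was large in 890 and 892 and small in 899, with log2 ratios of −0.74, −0.55 and −0.08. The group means were 357 ± 53.6 and 261 ± 46.9 CPM (SD, n = 3), and Irf1 fell by 0.46 ± 0.11 (SE) on the log2 scale, or 1.37-fold lower (edgeR, adjusted p = 0.033). The same test without the block gave an adjusted p of 0.230, DESeq2 with the block 0.175 (0 of the 18 listed genes with an adjusted p passed there, against 7.11% of all genes), and leaving out mouse 890 or 892 gave 0.0571 and 0.0771. In the authors' deposited table Irf1 has a log2 fold change of −0.45 with an adjusted p of 0.00253. Irf1 lies on chromosome 11 (53770014 to 53778374, plus strand), and an exon of it overlaps the opposite-strand gene Gm17334, whose reads could not be set apart because the strand setting of the counting is not given in the sources used here.

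Irf2, which binds the same sites as Irf1 and is best known as its antagonist, had 46.6, 44.4 and 46.0 CPM on the normal and 51.2, 55.5 and 59.6 CPM on the denervated side. It was higher after denervation in 3 of 3 mice and the groups did not overlap, yet its log2 fold change of 0.28 ± 0.09 did not pass (adjusted p = 0.108 by edgeR). Stat2, the Stat specific to type I and III signalling, had 48.5, 37.3 and 35.4 against 38.2, 34.0 and 32.8 CPM, lower in each mouse but with overlapping groups (log2 fold change −0.20, adjusted p = 0.307 by edgeR). Its partner in the ISRE-binding complex, Irf9, had 37.3, 31.5 and 40.1 against 41.7, 39.0 and 37.3 CPM, with mixed directions among the mice (0.12, adjusted p = 0.571 by edgeR). The groups overlapped for each of the other factors too. Irf3, which relays nucleic acid sensing and is present without induction, had 59.0, 57.0 and 49.0 against 51.9, 48.0 and 55.5 CPM. Irf7, which amplifies type I interferon production and is itself interferon-induced, was at 5.44 to 7.35 CPM in all libraries, Irf5 at 36.8 to 40.0 and Irf8, known from myeloid cells, at 0.858 to 1.59.

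**Figure D3:**
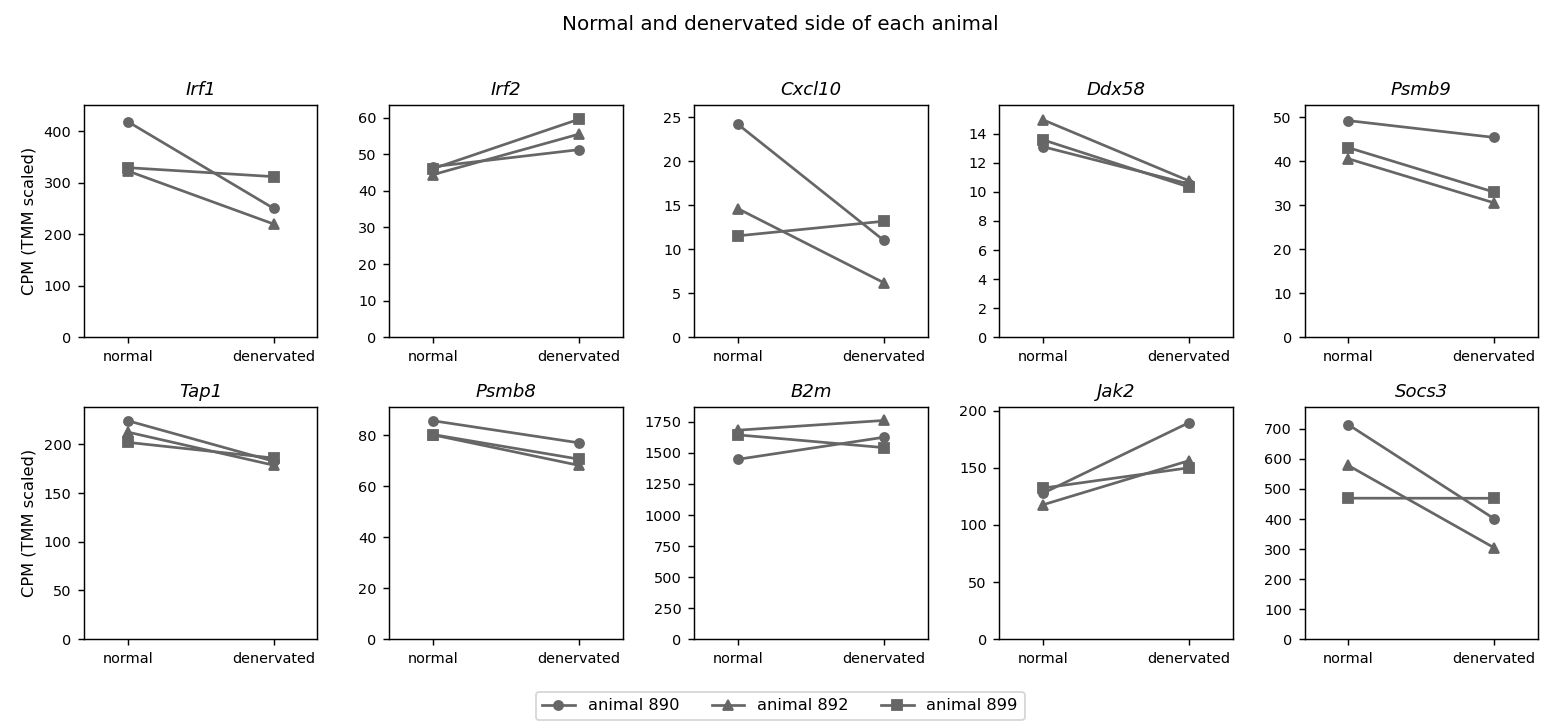
Level on the normal and denervated side (y axis, TMM-scaled CPM from 0) of 8 listed genes and of Jak2 and Socs3, with a line joining the 2 libraries of each mouse. Irf1, Cxcl10 and Socs3 slope down steeply in mice 890 and 892 and are nearly level in 899, Ddx58 slopes down and Irf2 up in all 3, and B2m has no common direction.

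None of the 21 interferon-stimulated genes tested passed between the sides. Their median log2 fold change was −0.17, 16 of the 21 were below 0, and 4 had an unadjusted p below 0.05 in the lower and 2 in the higher direction. Cxcl10 had 24.2, 14.6 and 11.5 CPM on the normal and 11, 6.18 and 13.2 on the denervated side. As with Irf1, it was low on the denervated side of mice 890 and 892 and not of 899, with log2 ratios of −1.14, −1.24 and 0.19. Its log2 fold change was −0.72 ± 0.23 (edgeR, adjusted p = 0.103). Without mouse 899, the mouse that went the other way, the adjusted p was 0.000172 (edgeR). Without 890 or 892 Cxcl10 did not pass. The mice kept in the fit without 899 share a direction, so its small p is no separate support for a fall. An exon of Cxcl10 overlaps the opposite-strand gene Art3.

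Ddx58, which encodes the RNA sensor RIG-I, had 13.1, 15 and 13.6 CPM on the normal and 10.5, 10.8 and 10.3 on the denervated side. It was lower in each mouse and the groups stood apart, with a log2 fold change of −0.40 ± 0.15 that did not pass (edgeR, adjusted p = 0.162). The related sensor Ifih1 (MDA5) had 28.5, 28.2 and 26.2 against 27.7, 25.4 and 21.1 CPM (−0.17, adjusted p = 0.449 by edgeR). Trim25, a ubiquitin ligase that acts on RIG-I, went the other way, with 70.8, 62.4 and 48.3 against 79.4, 76.3 and 54.9 CPM. It was higher after denervation in 3 of 3 mice, by 0.21 ± 0.08 on the log2 scale (edgeR, adjusted p = 0.171). Isg20, an exonuclease, was also higher in each mouse, with 2.67, 2.52 and 0.858 against 3.44, 4.95 and 1.84 CPM (0.78 ± 0.32, adjusted p = 0.209 by edgeR), and overlapped between the sides.

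Among the listed antiviral effectors, Isg15, Rsad2 and Ifit1 were scarce on both sides. Antiviral genes beyond the list need not be: Ifitm3 had 544 to 640 TPM and Ifitm2 292 to 365 TPM over all libraries. Isg15, a ubiquitin-like protein that is joined to others after interferon exposure, had 3.23, 2.15 and 2.00 CPM on the normal and 2.58, 2.40 and 0.995 on the denervated side (log2 fold change −0.33, adjusted p = 0.668 by edgeR). Oasl2, of the oligoadenylate synthase family, had 10.6, 7.62 and 3.36 against 5.17, 5.31 and 3.60 CPM. It was lower on the denervated side in mice 890 and 892 and not in 899 (−0.53 ± 0.23, adjusted p = 0.244 by edgeR). Rsad2, which encodes viperin, had 0.939, 1.87 and 0.143 against 0.431, 0.945 and 0.0766 CPM, lower in each mouse, with an adjusted p of 0.369 by edgeR. In 899 those values stood on 2 counts and 1 count. Ifit1, which binds foreign RNA, was counted 23, 12 and 0 times in the normal and 10, 4 and 3 times in the denervated libraries, too few to compare. The guanylate-binding protein Gbp2 moved in opposite directions, with 20.7, 14.5 and 9.72 CPM on the normal and 10.9, 15.2 and 22.7 on the denervated side (0.12, adjusted p = 0.855 by edgeR). It was lower on the denervated side of mouse 890 and higher in 899. Without 890, the mouse that went the other way, its log2 fold change was 0.62 (edgeR, adjusted p = 0.017). Without 892 or 899 Gbp2 did not pass. The mice kept in the fit without 890 had log2 ratios of 0.06 in 892 and 1.23 in 899. The small p of that fit is no separate support for a rise.

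The other 12 genes of this group that were tested overlapped between the sides, with log2 fold changes from −0.60 to 0.02. They were Ifi35, Mx2, Oas1a, Bst2, Usp18, Dhx58, Xaf1, Parp9, Parp14, Gbp7, Igtp and Irgm1. The lowest value was that of Mx2, a dynamin-like GTPase gene annotated as a polymorphic pseudogene, and the highest that of Gbp7. Ifi35, Xaf1 and Parp14 were lower after denervation in 3 of 3 mice, and the rest had mixed directions. Usp18, the protease that removes Isg15 and restrains the type I receptor, had 13.4, 13.7 and 11.3 CPM on the normal and 16.1, 5.96 and 14.2 on the denervated side. It was lower on the denervated side in mouse 892 alone among the 3.

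None of the 9 antigen processing genes passed between the sides, with a median log2 fold change of −0.07, 6 of 9 below 0, and 3 with an unadjusted p below 0.05, all lower. The immunoproteasome subunits, which replace constitutive ones and change the peptides that a cell displays, are Psmb8, Psmb9 and Psmb10. Psmb9 had 49.3, 40.6 and 43.1 CPM on the normal and 45.4, 30.5 and 33.0 on the denervated side (−0.30 ± 0.10, adjusted p = 0.112 by edgeR). It was lower in each mouse, and the groups overlapped through the denervated library of 890. Psmb8 had 85.6, 80.1 and 80.2 against 77.0, 68.1 and 70.6 CPM, without overlap (−0.19 ± 0.08, adjusted p = 0.207 by edgeR). Psmb10 ranged from 8.95 to 13.2 CPM with mixed directions. The constitutive counterparts Psmb5, Psmb6 and Psmb7 did not pass either, with log2 fold changes of −0.08, −0.07 and 0.06. In TPM, the ratio of Psmb9 to Psmb6 was 0.789 ± 0.107 on the normal and 0.695 ± 0.109 (SD, n = 3) on the denervated side, that of Psmb8 to Psmb5 0.953 ± 0.0705 and 0.892 ± 0.127, and that of Psmb10 to Psmb7 0.0692 ± 0.00306 and 0.0662 ± 0.0138. Each of these ratios overlapped between the sides.

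Tap1, which with Tap2 pumps peptides into the endoplasmic reticulum, had 224, 213 and 202 CPM on the normal and 183, 179 and 186 CPM on the denervated side. The groups did not overlap and Tap1 was lower in each mouse, by 0.22 ± 0.07 on the log2 scale (edgeR, adjusted p = 0.124). Without mouse 899, where the side difference was smallest, the adjusted p was 0.0487 (edgeR). Without 890 or 892 Tap1 did not pass. The mice kept in the fit without 899 are those with the larger side differences, so its smaller p is no separate support for a fall. Tap2 had 102, 101 and 81.4 against 100, 83.6 and 75.9 CPM (−0.13, adjusted p = 0.418 by edgeR). Tapbp, or tapasin, which holds class I molecules at the transporter, had 165, 176 and 167 against 176, 176 and 183 CPM, level in mouse 892 to the digits shown (0.08, adjusted p = 0.622 by edgeR). The transporter subunits and tapasin thus differed in sign, and none passed. Psmb9 and Tap1 overlap each other on opposite strands in the GENCODE annotation, so reads of the overlap could be counted to either.

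The class I molecules themselves showed no change between the sides that passed the test. B2m had 1449, 1683 and 1645 CPM on the normal and 1626, 1762 and 1543 on the denervated side, higher in 2 mice and lower in 1 (0.05 ± 0.09, adjusted p = 0.833 by edgeR). H2-D1 had 953, 868 and 946 against 1076, 901 and 824 CPM (0.01 ± 0.09, adjusted p = 0.965 by edgeR). H2-K1 had 811, 1026 and 1337 against 830, 949 and 1274 CPM (−0.05 ± 0.08, adjusted p = 0.802 by edgeR). For both heavy chains the sides overlapped throughout and the mice disagreed in direction. H2-D1 received 2.41 to 2.64 times as many estimated as raw counts, which leaves its level uncertain.

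Differences between the mice were a separate matter. A test of the animal terms in the same fit passed for 2 of the 38 genes, H2-K1 and Trim25, against 3.78% of all genes. H2-K1 averaged 820 CPM in mouse 890, 987 in 892 and 1305 in 899 over both sides (edgeR, adjusted p = 0.00485), and the 2 libraries of each mouse lay close together. Trim25 averaged 75.1, 69.3 and 51.6 CPM (edgeR, adjusted p = 0.0137), lowest in 899. Without mouse 899 the adjusted p was 0.104 for H2-K1 and 0.683 for Trim25. Rsad2 and Oasl2, also lowest in 899, came to adjusted p-values of 0.0542 and 0.092 by edgeR. H2-D1 and B2m did not pass, at 0.523 and 0.693.

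**Figure D4:**
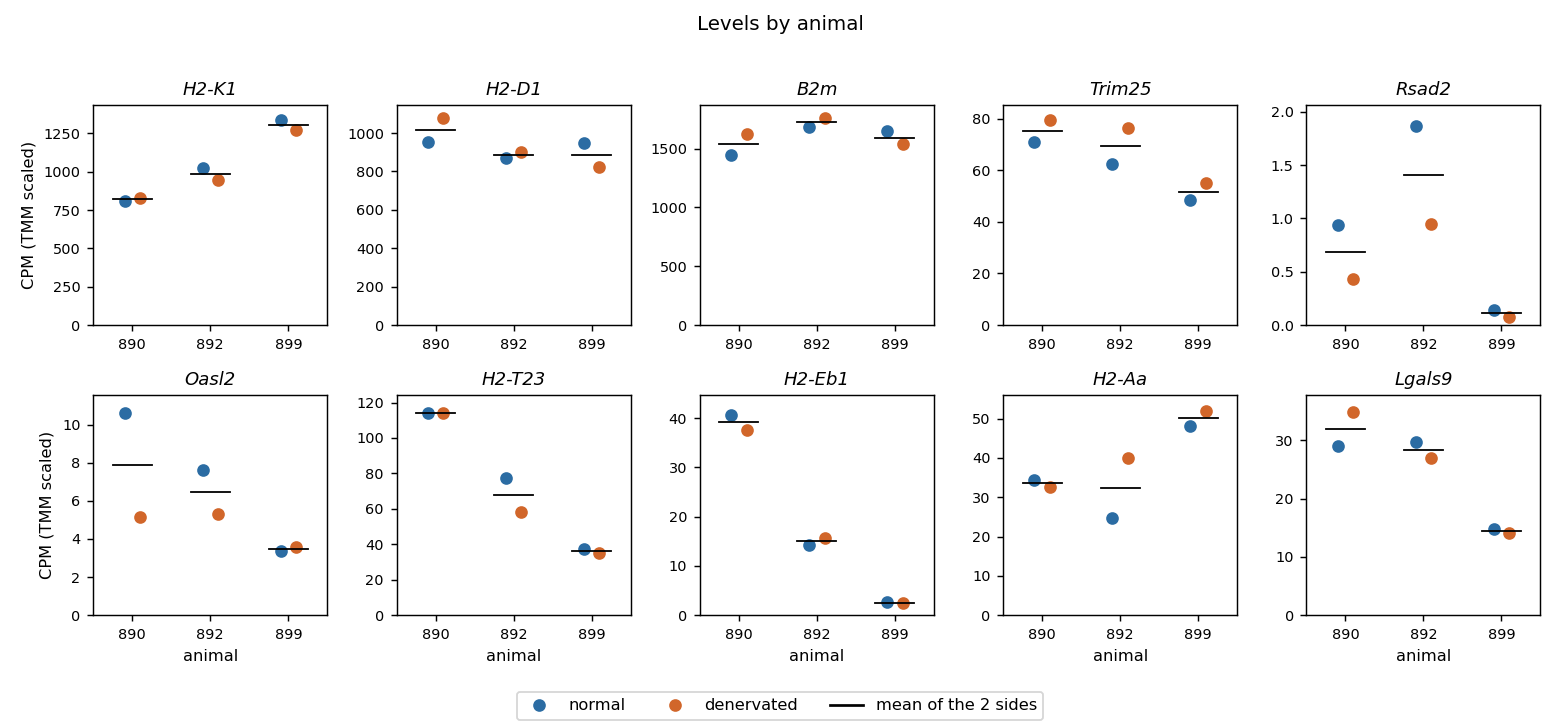
Level in each library (y axis, TMM-scaled CPM from 0) by animal (x axis) for 6 listed genes and for H2-T23, H2-Eb1, H2-Aa and Lgals9, with normal in blue, denervated in orange and a line at the mean of both sides. H2-K1 is highest and H2-T23, H2-Eb1 and Lgals9 are lowest in mouse 899, while H2-D1 and B2m differ little.

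The listed genes of the MHC lie on chromosome 17. Tapbp, H2-K1, Psmb9, Tap1, Psmb8, Tap2 and H2-D1 are placed between 33915899 and 35267499 on mm10. Of the 67 genes tested in that interval, 5 differed between mice (7.46%, against 3.78% of all genes) and none between the sides. The 5 were C2, H2-Aa, H2-Ea-ps, H2-Eb1 and H2-K1. H2-Eb1, a class II chain of antigen-presenting cells, had 40.6, 14.3 and 2.57 CPM on the normal and 37.7, 15.6 and 2.37 on the denervated side (animal terms, edgeR, adjusted p = 2.33e-07). It descended where the class II chain H2-Aa, with 34.4, 24.7 and 48.3 against 32.6, 39.9 and 51.9 CPM, did not. The nonclassical class I gene H2-T23, outside the interval, had 114, 77.6 and 37.0 against 114, 58.2 and 35.3 CPM (animal terms, edgeR, adjusted p = 7.8e-06). For H2-Eb1 and H2-T23 both libraries of a mouse sat together, and their order of mice was the reverse of that of H2-K1.

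Genes of the surrounding pathway, from lists drawn up by role, gave 1 rise and 1 fall. Of 11 interferon genes 0 had enough counts to be tested, Ifnb1 and Ifng had no count in any library, and Ifnk, the keratinocyte interferon, had at most 0.431 CPM. Of 11 receptors, kinases and Stat partners tested, 1 rose, none fell and 10 did not pass. Jak2, a kinase of the interferon gamma receptor and many cytokine receptors, had 128, 118 and 132 CPM on the normal and 190, 156 and 150 on the denervated side. It stood higher in each mouse without overlap, and rose by 0.39 ± 0.08 on the log2 scale (edgeR, adjusted p = 0.0252). Without the block the adjusted p was 0.180, and without mouse 890 or 892 it was 0.0526 and 0.0583. In the authors' deposited table Jak2 has a log2 fold change of 0.40 with an adjusted p of 0.00449. DESeq2 with the block gave Jak2 an adjusted p of 0.00384, and there Jak1 (0.0244) and Stat3 (0.0026) passed as well. By edgeR those came to adjusted p-values of 0.117 and 0.0604. The receptor chains Ifnar1 and Ifnar2 had opposite signs, at −0.26 and 0.49, and neither passed (adjusted p = 0.182 and 0.131 by edgeR).

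Of 13 inhibitors of the pathway, 1 fell, none rose and 12 did not pass. Socs3, a feedback inhibitor of Jak kinases induced chiefly by Stat3, had 714, 578 and 469 CPM on the normal and 401, 304 and 469 on the denervated side. It was low on the denervated side of mice 890 and 892 and equal in 899 (log2 ratios −0.83 and −0.93 in 890 and 892). Socs3 fell by 0.59 ± 0.14 on the log2 scale (edgeR, adjusted p = 0.0349). The adjusted p was 0.219 without the block, 0.329 with DESeq2 and 0.0911 without mouse 892. In the authors' deposited table Socs3 has a log2 fold change of −0.58 with an adjusted p of 0.304. Socs1, the inhibitor most tied to interferon gamma, had 4.09 to 8.37 CPM and did not pass (adjusted p = 0.640 by edgeR).

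The remaining lists held no gene that passed. Of 18 genes of nucleic acid sensing 13 were tested, with a median log2 fold change of 0.05, and the smallest p was that of Adar, the RNA-editing enzyme that keeps a cell's own RNA from MDA5. Adar had 47.5, 41.7 and 40.4 CPM on the normal and 31.1, 35.3 and 33.7 on the denervated side, lower in each mouse without overlap (−0.37 ± 0.10, adjusted p = 0.070 by edgeR). Ikbke, a kinase that activates Irf3, had 97, 89.0 and 85.9 against 75.7, 72.4 and 82.5 CPM, also lower in each mouse without overlap (−0.24 ± 0.08, adjusted p = 0.143 by edgeR).

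Of 43 further interferon-stimulated genes 28 were tested, with a median of −0.16 and 19 below 0. Irgm2, an immunity-related GTPase, had 6.5, 3.46 and 4.65 against 3.23, 2.25 and 3.14 CPM, without overlap (−0.73 ± 0.25, adjusted p = 0.137 by edgeR). Ifi27 had 72.3, 77.8 and 68.6 against 69.8, 63.8 and 57.9 CPM, lower in each mouse with overlap (adjusted p = 0.234 by edgeR). The 14 tested of 18 further class I presentation genes had a median of 0.00. Nlrc5, the transactivator of MHC class I genes, was among them and overlapped between the sides, with 251, 207 and 228 against 266, 250 and 242 CPM (0.15, adjusted p = 0.325 by edgeR). Canx, or calnexin, which folds new heavy chains, had 430, 388 and 487 against 519, 463 and 521 CPM, higher in each mouse (0.21 ± 0.08, adjusted p = 0.174 by edgeR).

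Irf4, known from lymphocytes and myeloid cells, had 24.3, 15.9 and 11.7 against 18.1, 9.67 and 10.7 CPM, lower in each mouse with overlap (−0.43 ± 0.15, adjusted p = 0.138 by edgeR). Irf4 differed between the mice (animal terms, edgeR, adjusted p = 0.0162).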

How the data were processed

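Groups and mouse numbers came from the sample titles. The labels' protocols take both sides from each mouse, so its number was used as a block. Deviations of log2 CPM from the side means correlated at 0.356, 0.361 and 0.443 for the 3 same-mouse pairs, across genes. Poly(A) libraries were made with a directional kit, per the labels' protocols. STAR 2.6.1a, Salmon 0.11.2 and mm10 are named in the submitters' processing notes. For the counting tool, strand setting and annotation no source is at hand here.

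The authors deposited raw whole-number counts for 24982 genes, and estimated counts, which need not be whole, with TPM per gene, per the file headers. The authors' deposited table of log2 fold changes, p-values, test scores and mean normalised signal was only quoted. 26 row names were turned into dates by a spreadsheet and 2 names occur more than once, and these stayed in the totals.

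Counts were tested with edgeR 4.0.16 (R 4.3.3): TMM, filterByExpr (minimum count 10, minimum total 15), animal block, quasi-likelihood F test, Benjamini-Hochberg over 12310 genes. The size of a log2 fold change divided by the root of its F gave the standard error. Differences between mice were an F test of the animal terms. The script was tested on simulated data. Libraries of a side differed by more than sampling noise. Replicates are 3 mice, and intervals and floors from counts cover counting error only.

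The members, lists and naming rule were chosen with earlier results of these data known. Values per library are given for genes that passed, the 4 with the smallest p (sides or animals) and 2 with the highest TPM per group, 8 fixed genes, and from each pathway list those that passed or else the 2 with the smallest p. Some genes that the rule picks are left out. Ifih1, Gbp2, Usp18, Tapbp, the receptor chains, Socs1 and the class II genes were added after their values were seen. Alternatives were no block, DESeq2 size factors, library totals, other filters, DESeq2 1.42.0, rounded estimated counts, limma 3.58.1 on log2(TPM + 1), and each mouse left out. Promoters came from RefSeq, positions from GENCODE by symbol (45 of 45 matched). No protein sequence was used here.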

Additional observations from a re-analysis of the deposited data

How the results depend on the processing

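Without the replicate block 0 genes and 0 listed genes passed between the sides (1537 genes, 12.5%, at an unadjusted p below 0.05), with no filter on low counts 987 and 2 (Irf1 and Cxcl10), with limma on log2(TPM + 1) 1 and 0, and with DESeq2 485 and 0. The block moved the count of passing genes from 0 to 426. Leaving out each mouse in turn gave 248 to 976 genes and 0 to 4 listed genes: Psmb9 and Gbp2 without 890, none without 892, and Irf1, Tap1, Cxcl10 and Oasl2 without 899. Between the mice, the counts were 1057 genes and 9 listed genes with no filter, 97 and 1 with limma, and 329 to 878 and 1 to 6 with a mouse left out. DESeq2 size factors, a minimum of 1 mean CPM and estimated counts each left Irf1 as the listed gene that passed. Signs turned as follows. With library totals the log2 fold changes were −0.053 for Dhx58, −0.04 for Gbp7, −0.015 for B2m and −0.052 for H2-D1. With DESeq2 Dhx58 was −0.027. With estimated counts Oas1a was 0.0048, Dhx58 −0.047, H2-D1 −0.018 and H2-Bl 0.0012. With limma Dhx58 was −0.040 and H2-D1 −0.048. With each mouse left out the values ran from −0.064 to 0.0056 for Irf5, −0.22 to 0.012 for Irf3, −0.62 to 0.22 for Irf8, −0.61 to 0.32 for Dhx58, −0.52 to 0.39 for Oas1a, −0.42 to 0.32 for Usp18, −0.59 to 0.0079 for Bst2, −0.41 to 0.62 for Gbp2, −0.32 to 0.20 for Gbp7, −0.41 to 0.033 for Igtp, −0.29 to 0.027 for Irgm1, −0.25 to 0.14 for Psmb10, −0.013 to 0.12 for B2m and −0.072 to 0.12 for H2-D1. The marker sum of plasmacytoid dendritic cells, log2 ratio −0.70 in CPM, was −0.48 in TPM. The causes were not tested. With 3 mice and floors of up to 0.323 CPM, 7 listed genes had too few counts to be tested, and DESeq2 gave an adjusted p for 18 of the 38 listed genes tested.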

Other observations

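Genes with a symbol that begins H2- were looked at after their values were seen. They take in the listed H2-K1 and H2-D1 and class II genes such as H2-Aa and H2-Eb1, as well as class I genes beyond the list. Of 24 tested genes with a symbol that begins H2-, 10 differed between the mice (41.7%, against 3.78% of all genes) and 2 passed between the sides (3.46% of all genes did). H2-K1, H2-Aa and H2-Eb1 are among the 10, so that share does not describe unlisted class I genes alone. H2-Q1, a class I gene of the Q region, had 27.3, 14.8 and 7.08 CPM on the normal side of mice 890, 892 and 899 and 48.2, 17.7 and 15.2 on the denervated side, and rose by 0.70 ± 0.15 on the log2 scale (edgeR with the animal block, adjusted p = 0.0242). H2-Bl had 25, 21.6 and 16.5 against 11.1, 15.5 and 11.6 CPM and fell by 0.71 ± 0.15 (edgeR, adjusted p = 0.0248). With estimated counts in place of raw counts, the log2 fold changes were 0.24 for H2-Q1 (edgeR, adjusted p = 0.437) and 0.00 for H2-Bl (edgeR, adjusted p = 0.997). Estimated counts were 1.25 to 3.41 times the raw counts for H2-Q1 and 0.972 to 2.36 times for H2-Bl.

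The near-identical class I genes H2-Q6 and H2-Q7 had 0 raw counts in all 6 libraries, where the estimated counts were 815 to 4511 and 404 to 1562. Trex1, a DNA exonuclease of the sensing list, likewise had 0 raw counts and 309 to 683 estimated counts, so a raw count of 0 does not show absence for these genes. Of the 36 listed genes with at least 10 counts in every library, 33 had a ratio of estimated to raw counts from 0.8 to 1.1 in every library. The other 3 were Oas1a, Xaf1 and H2-D1. The cause of the differences was not tested.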
